A study of Sorghum bicolor with 5 samples.

Results

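Of the 35567 genes in the count files, 7 that set flowering time by day length in sorghum were followed in young leaves. They were taken by identifier. They are *PRR37* (*SORBI_3006G057866*, the maturity locus *Ma1*), *GHD7* (*SORBI_3006G004400*, *Ma6*), *EHD1* (*SORBI_3001G227900*), *CO* (*SORBI_3010G115800*) and the florigen genes *CN8* (*SORBI_3009G199800*), *CN12* (*SORBI_3003G295300*) and *CN15* (*SORBI_3010G045100*). These names came with the identifiers, and the annotation used here paired none of them, so the naming was not checked. By their identifiers the 7 genes lie on chromosome 6 (*PRR37* and *GHD7*), 1 (*EHD1*), 10 (*CO* and *CN15*), 9 (*CN8*) and 3 (*CN12*). Of the 7 genes, all were detected in all 5 plants, 6 had at least 10 counts in every plant, and none was called different between the lines. The test called 1 of all 23098 genes tested (0.00433%), so the absence of calls does not set the 7 genes apart. With edgeR at the same cutoffs, the study reported many more differing genes for this contrast, which the test used here did not reproduce. The count over all genes depended on the test, at 0 with limma-voom, 51 with the exact test and 68 with DESeq2.

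Epi-F3 high (Epi68), the line labelled as enhanced, was represented by 2 plants, replicates 1 and 3 by the plant numbers in their titles. Epi-F3 low (Epi15), labelled as non-enhanced, was represented by 3 plants, replicates 1, 2 and 3. The study's text describes 3 plants of each line, so its epi-F3 high group is not complete here. Both lines have the Tx430 inbred background and descend from crosses of wild-type Tx430 with transgene-null progeny of plants in which RNAi had suppressed *MSH1*, a nuclear gene whose protein works in plastids and mitochondria. Wild-type plants are not among the libraries, so each difference is between 2 derived lines, each of them 1 selected line. The plants grew in a greenhouse with 14 h of light, at 28°C in the day and 22°C in the night, and young leaves were taken at 4 weeks by the labels. The study's own text is not uniform on this age and also states one a few days lower. The hour of harvest is not given in the sources used here, and transcripts of this pathway are known to cycle over the day.

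In grasses, leaves measure day length and send a mobile protein, florigen, to the shoot tip, where it turns a leaf-making meristem into a floral one. In sorghum, a short-day plant, the repressors PRR37 and GHD7 act in long days by holding down the activator EHD1 and the florigen genes, and CO promotes the same florigen genes. CN8, CN12 and CN15 belong to the FT family of phosphatidylethanolamine-binding proteins, are named after their maize counterparts, and CN15 is the counterpart of rice Hd3a.

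The libraries held between 48372266 and 68979436 counts in genes. Levels are given in CPM (counts per 1000000 counts of the library, scaled with TMM factors), and a count of 3, the limit that a count of 0 allows, lay between 0.0427 and 0.0618 CPM. In the sum of 6 *MCM* homologs, genes of DNA replication used as markers of dividing tissue, epi-F3 high replicate 3 stood apart at 340.2 CPM, against 25.9 CPM in epi-F3 high replicate 1 and 28.1 to 47.1 CPM in epi-F3 low. No *MCM* homolog was at 0 in any plant. Of 4 green-leaf homologs, *PSAD2*, *PSAL* and *LHCB5* were abundant in every plant and *LHB1B1* was at 0.186 to 14.3 CPM. Their sum was 2164 and 3225 CPM in epi-F3 high and 3760 to 7043 CPM in epi-F3 low, without overlap. Both marker lists came from the study's table of differing genes, so these levels describe the samples and do not test the lines. Their part in the values below was not tested. In bulk leaf RNA, fewer cells of a type and less RNA per cell cannot be told apart.

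Among the repressors, *PRR37* was read at an even level. PRR37 is a pseudo-response regulator of the circadian clock family. It stood at 37.1 and 32.4 CPM in epi-F3 high replicates 1 and 3, against 29.6, 38.5 and 29.1 CPM in epi-F3 low replicates 1, 2 and 3. The highest and the lowest plant were both epi-F3 low, so the lines overlapped, and they were 1.33-fold apart. The line means were 34.8 ± 3.34 CPM (SD, n = 2) and 32.4 ± 5.31 CPM (SD, n = 3) in epi-F3 high and epi-F3 low. Between 1791 and 2124 counts per plant lay behind these values, so that counting error was small beside the spread between plants.

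*GHD7*, which encodes a CCT-domain protein, was read near the lower end of what these libraries can measure. Its counts were 11 and 41 in epi-F3 high replicates 1 and 3, against 21, 33 and 49 in epi-F3 low replicates 1, 2 and 3. On the CPM scale these are 0.227 and 0.631 in epi-F3 high, against 0.299, 0.599 and 0.796 in epi-F3 low. Replicate 1 was the lowest plant of both lines, and the lines overlapped. The exact 95% Poisson interval of the lowest plant, 0.113 to 0.406 CPM in epi-F3 high replicate 1, lay below that of the highest, 0.589 to 1.05 CPM in epi-F3 low replicate 3. Such intervals, here and below, cover counting error only.

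*EHD1*, a B-type response regulator that activates florigen genes in rice, was the only one of the 7 genes under 10 counts in any plant. Its counts were 3 and 27 in epi-F3 high replicates 1 and 3, against 4, 57 and 31 in epi-F3 low replicates 1, 2 and 3. Scaled levels were 0.0618 and 0.416 CPM in epi-F3 high, against 0.0569, 1.03 and 0.503 CPM in epi-F3 low. Replicate 1 of each line was at or just above the limit set by 3 counts, with overlapping intervals of 0.0128 to 0.181 CPM in epi-F3 high and 0.0155 to 0.146 CPM in epi-F3 low. The other 3 plants lay above both intervals, the lowest of them with an interval of 0.274 to 0.605 CPM. The level of *EHD1* thus differed beyond counting error between plants of the same line, in both lines.

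*CO*, a B-box zinc finger protein with a CCT domain, was expressed in all plants. It stood at 3.17 and 2.42 CPM in epi-F3 high replicates 1 and 3, against 1.95, 3.74 and 2.79 CPM in epi-F3 low replicates 1, 2 and 3. Both epi-F3 high plants lay within the range of epi-F3 low. The line means, 2.80 ± 0.536 CPM in epi-F3 high (SD, n = 2) and 2.83 ± 0.895 CPM in epi-F3 low (SD, n = 3), were closer together than the SD of either line. The plots of levels by plant show the 7 genes together, with each gene on its own scale.

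**Figure D1:**
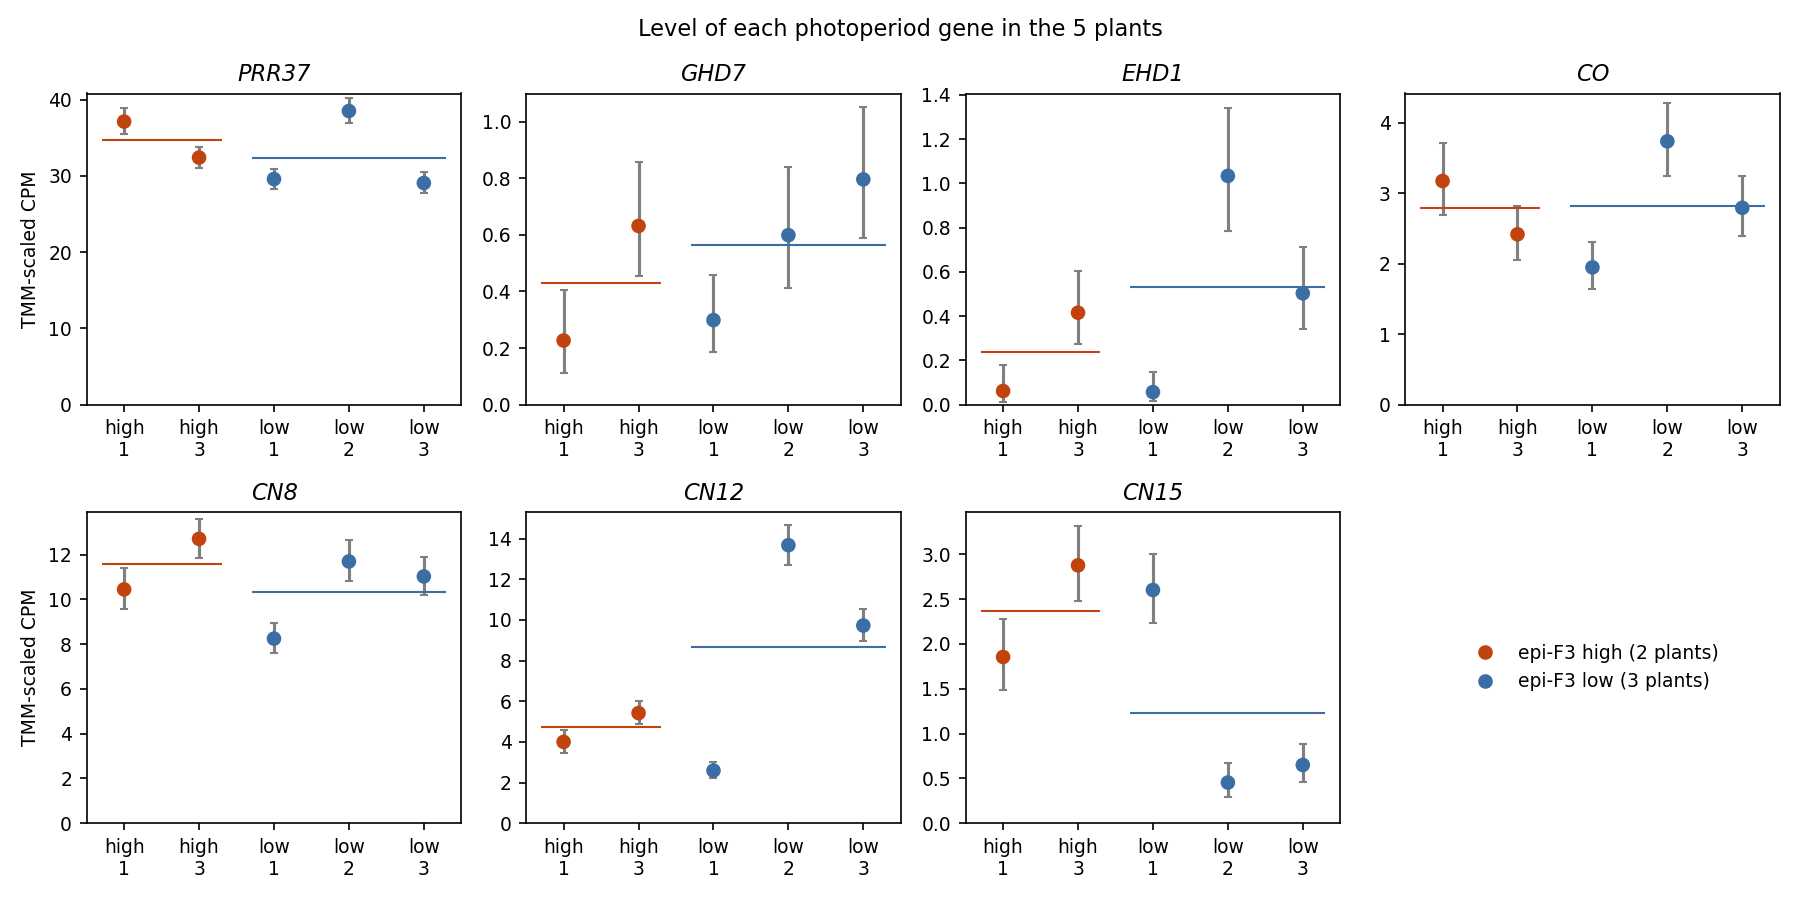
TMM-scaled CPM of each gene (vertical axes, starting at 0) in epi-F3 high replicates 1 and 3 and epi-F3 low replicates 1, 2 and 3. Points are single plants, grey bars exact 95% Poisson intervals and horizontal lines the line means. *CN12* ranged from 2.59 to 13.7 CPM within epi-F3 low, and the lines overlapped for every gene.

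All 3 florigen genes were expressed, and they differed in how evenly. *CN8* was steady, at 10.5 and 12.7 CPM in epi-F3 high replicates 1 and 3, against 8.25, 11.7 and 11.0 CPM in epi-F3 low replicates 1, 2 and 3. The highest and lowest plants were 1.54-fold apart, and the line means were 11.6 ± 1.60 CPM in epi-F3 high (SD, n = 2) and 10.3 ± 1.83 CPM in epi-F3 low (SD, n = 3).

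*CN12* was uneven within epi-F3 low. It stood at 4.00 and 5.42 CPM in epi-F3 high replicates 1 and 3, against 2.59, 13.7 and 9.73 CPM in epi-F3 low replicates 1, 2 and 3. Epi-F3 low thus held the lowest plant and the 2 highest, 5.28-fold apart at the extremes, with 182 counts in replicate 1 and 754 in replicate 2. The epi-F3 high plants lay between them and were 1.36-fold apart. The line means were 4.71 ± 1.00 CPM in epi-F3 high (SD, n = 2) and 8.66 ± 5.62 CPM in epi-F3 low (SD, n = 3).

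*CN15* was also uneven within epi-F3 low, with other plants at the top. It stood at 1.86 and 2.88 CPM in epi-F3 high replicates 1 and 3, against 2.60, 0.454 and 0.650 CPM in epi-F3 low replicates 1, 2 and 3. Epi-F3 low replicate 1, lowest of all plants for *CN12*, was the second highest for *CN15*, and epi-F3 low replicate 2, highest for *CN12*, was the lowest for *CN15*. The line means were 2.37 ± 0.724 CPM in epi-F3 high (SD, n = 2) and 1.24 ± 1.19 CPM in epi-F3 low (SD, n = 3).

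The ratio of *CN15* to *CN12* counts within a library needs no scaling between libraries. It was 0.464 (exact 95% interval 0.357 to 0.599) and 0.531 (0.443 to 0.636) in epi-F3 high replicates 1 and 3. In epi-F3 low it was 1.01 (0.814 to 1.24) in replicate 1, 0.0332 (0.0213 to 0.0493) in replicate 2 and 0.0668 (0.0472 to 0.0920) in replicate 3. The intervals of the epi-F3 high plants overlapped, while in epi-F3 low replicate 1 lay above them and replicates 2 and 3 lay below. Counts are not divided by transcript length, so the ratio compares plants and says nothing of which gene has more transcripts. Summed over *CN8*, *CN12* and *CN15*, the level was 16.3 and 21.0 CPM in epi-F3 high and 13.4, 25.8 and 21.4 CPM in epi-F3 low plants. This was less uneven than *CN12* or *CN15* alone, and the even *CN8* gave 8.25 to 12.7 CPM of it. With the *FT* homolog described below added, the sum was 18.0 and 23.2 CPM in epi-F3 high, against 16.1, 42.3 and 29.8 CPM in epi-F3 low.

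The order of the 5 plants was the same for *EHD1* and *CN12*. From high to low it was epi-F3 low replicate 2, epi-F3 low replicate 3, epi-F3 high replicate 3, epi-F3 high replicate 1 and epi-F3 low replicate 1, although for *EHD1* the intervals overlapped between the second and the third plant and between the last 2. The order for *CN15* was epi-F3 high replicate 3, epi-F3 low replicate 1, epi-F3 high replicate 1, epi-F3 low replicate 3 and epi-F3 low replicate 2. With 5 plants these orders are a description, and no correlation was computed. As a measure of likeness, the root mean square difference in log2 CPM, after subtracting each gene's own mean, was 0.694 between *EHD1* and *CN12* and 1.86 between *CN12* and *CN15*. By this measure *CN12* was nearer to *GHD7* (0.554), the *FT* homolog (0.65) and *CO* (0.653) than to *EHD1*, although their plant orders differ from its own. The measure is not scaled by spread, so the wider spread of *EHD1* also raises its difference from *CN12*. Between *PRR37*, *CO* and *CN8*, the 3 even genes, it was 0.211 to 0.266.

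**Figure D2:**
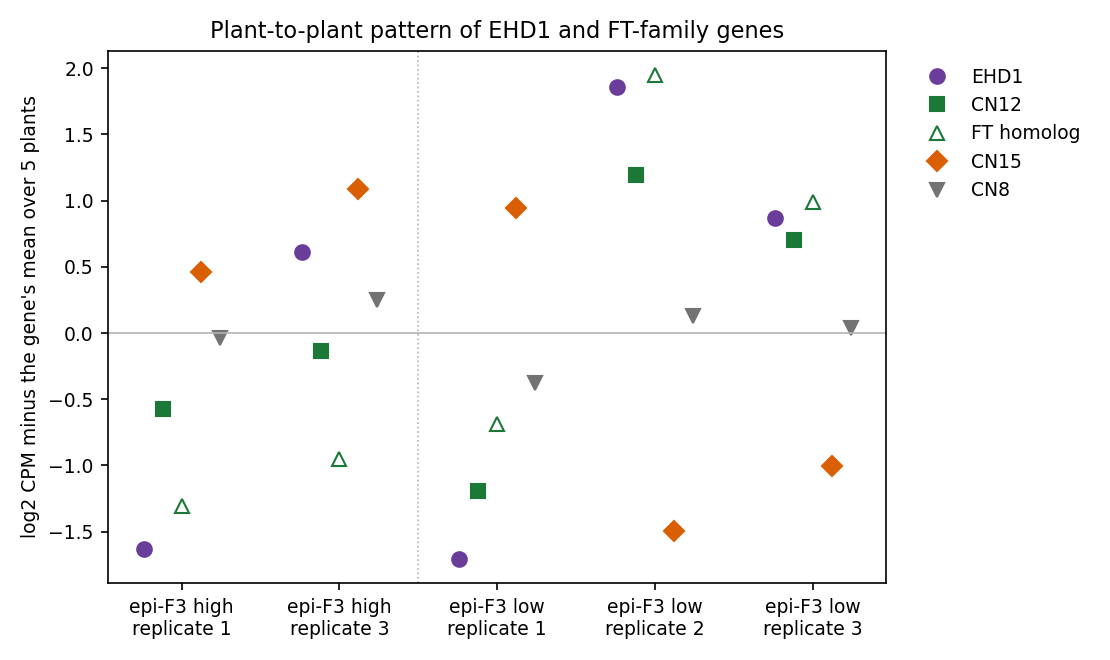
Log2 CPM of *EHD1*, *CN12*, the *FT* homolog beside *CN8*, *CN15* and *CN8* after subtracting each gene's mean over the 5 plants (vertical axis), by plant. In epi-F3 low replicate 2 *EHD1*, *CN12* and the *FT* homolog were at 1.86, 1.20 and 1.95, with *CN15* at -1.49, while *CN8* stayed between -0.38 and 0.25 in all plants.

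To set this spread in context, each gene was placed beside the other genes with at least 1 count in every plant and a mean log2 CPM within 1 of its own. Between the 3 epi-F3 low plants, a ratio of highest to lowest as large as the 5.28 of *CN12* was found in 2.10% of 3811 such genes, whose median ratio was 1.51. For *CN15* it was 5.74, found in 8.51% of 2610 genes, and for *EHD1* 18.2, found in 4.5% of 1890 genes. The ratios of *PRR37* (1.33), *CO* (1.92), *CN8* (1.42) and *GHD7* (2.66) were matched by 41.7, 42.7, 44.6 and 54.3% of the genes of like level. Between the 2 epi-F3 high plants, a ratio as large as that of *CN12* or *CN15* was found in 59.4 and 61.8% of such genes, and one as large as the 6.72 of *EHD1* in 16.3%. Over all 5 plants, ratios as large as those of *CN12*, *CN15* and *EHD1* were found in 7.27, 19.4 and 13.5% of such genes. For these 3 genes the shares within epi-F3 low were the smallest, and *CN12* and *CN15* had already been seen to be uneven in that line. These shares describe the 5 libraries and are not tests.

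Between the lines, no gene of the 7 was called with edgeR's quasi-likelihood test over all 23098 genes tested, where a call needs an adjusted p no higher than 0.1 and a log2 fold change of 0.5 or more in size. All 7 genes passed the filter of 10 counts over the 5 libraries and were tested. The test called 0.00433% of all genes, 1 gene. None of the 7 had an unadjusted p under 0.05, as 3.22% of all genes did, and edgeR's exact test, DESeq2 and limma-voom also called none of them. The lines overlapped for all 7, while they did not overlap for 16.8% of all genes tested. The mean of epi-F3 high was the higher one for 3 of the 7 and the lower one for 4. Their median log2 fold change was -0.02, beside 0.02 over all genes tested.

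How much of a difference the data allow varied widely between the genes. For *PRR37* the log2 fold change was 0.10 (standard error 0.21, 95% interval -0.38 to 0.59), the narrowest interval of the 7. For *CN8* it was 0.17 (standard error 0.28, interval -0.48 to 0.81), and for *CO* -0.02 (standard error 0.45, interval -1.07 to 1.04). For *CN12* it was -0.88 (standard error 0.64, interval -2.36 to 0.60) and for *CN15* 0.93 (standard error 0.79, interval -0.90 to 2.77). The intervals of *GHD7*, -2.35 to 1.58 around -0.39, and of *EHD1*, -4.18 to 1.93 around -1.13, allow changes of several fold in either direction. The adjusted p was 0.999 for each of the 7 genes. The direction of *CN12* and *CN15* held without any single library, at -1.32 to -0.39 for *CN12* and 0.54 to 2.08 for *CN15*, but with a replicate block by plant number *CN12* was at -0.12. In that block epi-F3 low replicate 2, the highest plant for *CN12*, has no partner and adds nothing to the contrast of the lines. Without epi-F3 low replicate 1 the unadjusted p of *CN12* and *CN15* in the same edgeR fit was 0.0123 and 0.0195, with an adjusted p of 1. For both genes that plant was the furthest from the rest of its line. The unadjusted p of *CN12* and *CN15* was 0.578 and 0.513 without epi-F3 low replicate 2, and 0.337 and 0.493 without replicate 3 of that line. For *EHD1* the log2 fold change was -3.06 without epi-F3 high replicate 3, which leaves 1 epi-F3 high plant with 3 counts, -0.35 without replicate 1 of that line and -0.21 without epi-F3 low replicate 2. *GHD7* turned to 0.16 without epi-F3 high replicate 1.

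**Figure D3:**
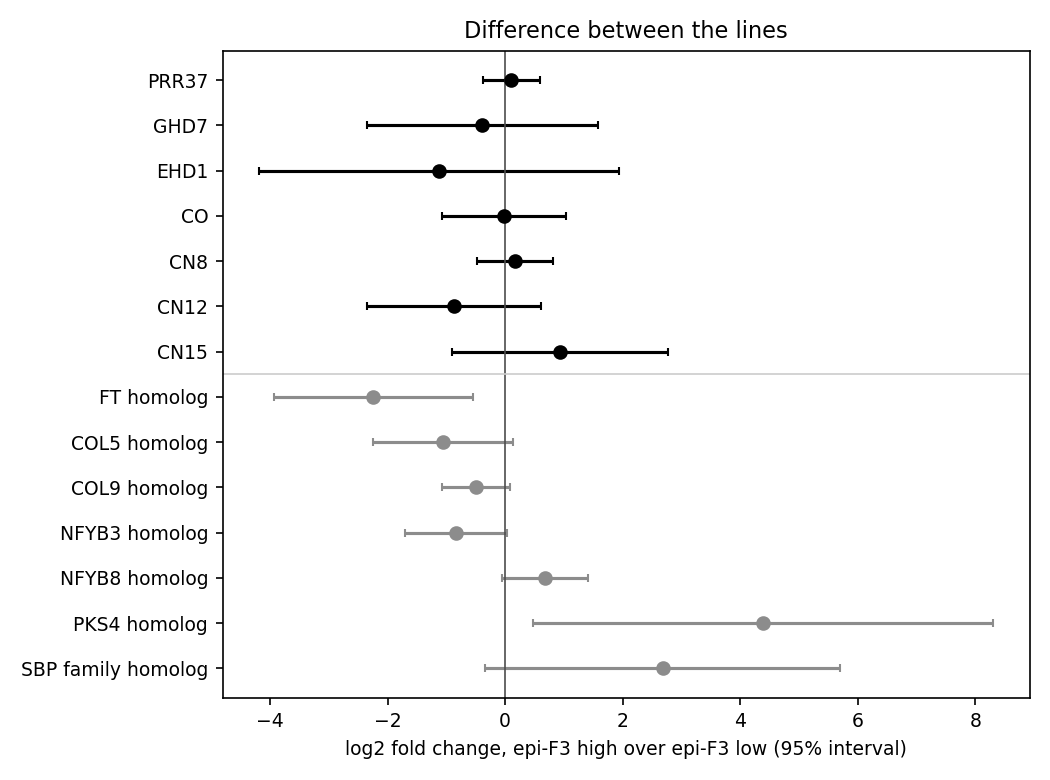
Log2 fold change of epi-F3 high over epi-F3 low (horizontal axis) from edgeR's quasi-likelihood fit, with 95% intervals. Black points are the 7 genes and grey points the 7 homologs from the study's table, of which the *PKS4* homolog rests on 18 counts in all. Every black interval spans 0, and that of *PRR37*, -0.38 to 0.59, is the narrowest.

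A further 7 genes of light and flowering pathways were read from the study's own table of differing genes, where each is paired with an Arabidopsis homolog. That table was drawn up on these samples, so the directions of these genes are not independent evidence. None of the 7 passed the quasi-likelihood test, although the study states the same cutoffs for its own edgeR calls. The reason for this conflict was not tested. In the quasi-likelihood test 2 had an unadjusted p under 0.05, beside 3.22% of all genes. In 5 the lines did not overlap, beside 16.8% of all genes. The mean of epi-F3 high was the lower one for 4 of them and the higher one for 3.

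One of them, *SORBI_3009G199900*, is paired with *FT*, the florigen gene of Arabidopsis, and carries the next locus number after *CN8*. It stood at 1.69 and 2.17 CPM in epi-F3 high replicates 1 and 3, against 2.62, 16.4 and 8.44 CPM in epi-F3 low replicates 1, 2 and 3. Both epi-F3 high plants were below every epi-F3 low plant, and epi-F3 low replicate 1 lay closer to them than to the other plants of its line. Its log2 fold change was -2.24 (standard error 0.73, interval -3.94 to -0.55, with an unadjusted p of 0.0161 and an adjusted p of 0.999 in the quasi-likelihood fit of edgeR), and -1.52 without epi-F3 low replicate 2. Over the alternative settings the adjusted p was between 0.202 and 1.

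The neighbouring pair moved apart between plants. The ratio of counts of the *FT* homolog to those of *CN8* was 0.162 (exact 95% interval 0.126 to 0.205) and 0.171 (0.142 to 0.204) in epi-F3 high replicates 1 and 3, against 0.317 (0.267 to 0.375), 1.40 (1.27 to 1.55) and 0.766 (0.682 to 0.860) in epi-F3 low replicates 1, 2 and 3. In this ratio all epi-F3 low plants lay above both epi-F3 high plants by more than counting error. The gene was in the study's table, so this separation is a description. By the name of *CN8* and the pairing of its neighbour with *FT*, the 2 genes are of one family. Only uniquely mapped reads were counted, so the split of reads between them is uncertain if their sequences are alike.

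**Figure D4:**
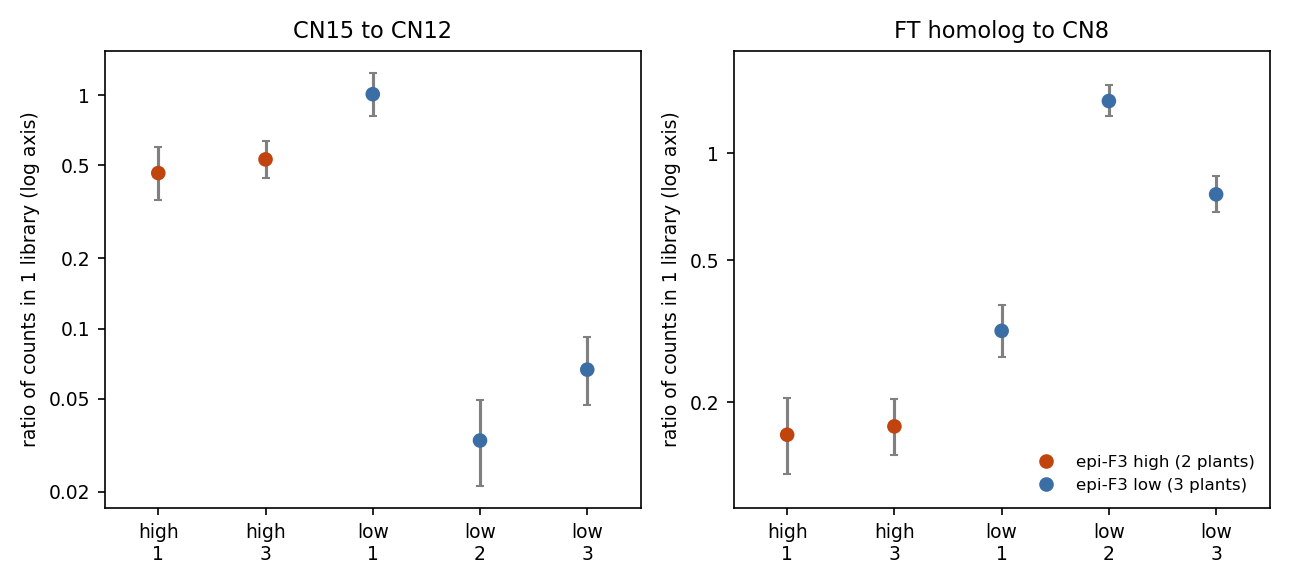
Ratio of counts within each library (vertical axes, log scale) for *CN15* to *CN12* and for the *FT* homolog to *CN8*, in epi-F3 high replicates 1 and 3 and epi-F3 low replicates 1, 2 and 3. Bars are exact 95% intervals. *CN15* to *CN12* was 0.464 and 0.531 in epi-F3 high, within the span of 0.0332 to 1.01 in epi-F3 low.

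Homologs of partners of CO were also in that table. In Arabidopsis, CO binds the *FT* promoter together with NF-Y subunits. The *NFYB3* homolog (*SORBI_3002G369800*) stood at 5.98 and 5.91 CPM in epi-F3 high, against 8.73, 7.73 and 15.3 CPM in epi-F3 low replicates 1, 2 and 3, without overlap. The *NFYB8* homolog (*SORBI_3009G166200*) stood at 12.3 and 21.8 CPM in epi-F3 high replicates 1 and 3, against 12.8, 9.32 and 9.81 CPM in epi-F3 low, with overlap. Their unadjusted p values in the quasi-likelihood fit of edgeR were 0.0579 and 0.0659.

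The 2 CONSTANS-like genes were lower on average in epi-F3 high. The homolog of *COL9*, which delays flowering in Arabidopsis (*SORBI_3004G256200*), stood at 136.7 and 94.3 CPM in epi-F3 high replicates 1 and 3, against 141.1, 195.3 and 152.2 CPM in epi-F3 low replicates 1, 2 and 3, without overlap. The *COL5* homolog (*SORBI_3004G063200*) stood at 3.26 and 4.93 CPM in epi-F3 high, against 7.14, 4.63 and 13.9 CPM in epi-F3 low replicates 1, 2 and 3, with overlap. The *PKS4* homolog (*SORBI_3003G121700*), named for a phytochrome kinase substrate, had 9 and 8 counts in epi-F3 high and 0, 0 and 1 in epi-F3 low. The homolog of a SQUAMOSA promoter-binding protein (*SORBI_3009G080000*) had 22 and 51 counts in epi-F3 high and 14, 0 and 5 in epi-F3 low. The *PKS4* homolog was thus under 3 counts in every epi-F3 low plant.

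The genes next to the 7 by locus number differed in how even they were. *CN8*, itself even, lies between *SORBI_3009G199750*, with 0 counts in all plants, and the uneven *FT* homolog, whose highest and lowest plants were 9.71-fold apart. Beside *CN12*, *SORBI_3003G295200* was at 22.4 and 22.0 CPM in epi-F3 high and 15.1 to 22.7 CPM in epi-F3 low, and *SORBI_3003G295400* was at 49.7 and 51.7 CPM in epi-F3 high and 36.7 to 45.8 CPM in epi-F3 low. Their highest and lowest plants were 1.51-fold and 1.41-fold apart, against 5.28-fold for *CN12*. Beside *CN15*, *SORBI_3010G045000* had 0 counts in all plants and *SORBI_3010G045200* was at 4.68 and 4.05 CPM in epi-F3 high and 2.10 to 4.90 CPM in epi-F3 low. Beside *EHD1*, *SORBI_3001G227850* had a 2.24-fold range over the plants, against 18.2-fold for *EHD1*, and *SORBI_3001G228000* had 0 counts. *PRR37*, read at 1791 counts or more, stood between *SORBI_3006G057733* and *SORBI_3006G058000*, which had at most 8 and 43 counts in a plant. *CO*, with 137 counts or more, stood between *SORBI_3010G115700* and *SORBI_3010G115900*, with at most 4 and 9. *GHD7* was flanked by genes with at least 180 counts in every plant, *SORBI_3006G004300* and *SORBI_3006G004500*.

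Genes with the plant pattern closest to each of the 6 genes above 10 counts were sought among 17327 other genes with a mean of at least 1 CPM (17328 for *GHD7*), by the same root mean square difference in log2 CPM over 5 libraries. The closest were *SORBI_3005G169500* to *PRR37* (0.0236), *SORBI_3003G420000* to *CO* (0.0483) and *SORBI_3009G138200* to *CN8* (0.0204). To *GHD7* it was *SORBI_3008G163700* (0.130), to *CN12* *SORBI_3006G201300* (0.274) and to *CN15* *SORBI_3007G081300* (0.135). The median difference over all genes searched was 0.294 to 0.401 for the even genes and 0.899 and 1.09 for *CN12* and *CN15*. The measure is not scaled by spread, so it is small for any pair of even genes. The sources used here pair none of these 6 identifiers with a name.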

How the data were processed

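Each deposited file holds raw counts per gene for 1 library of 1 plant, followed by 5 summary lines that name no gene. These lines were left out. Those for reads in no gene or in an ambiguous one made up 4.22 to 7.60% of their sum with the gene counts of a library. The authors trimmed paired-end reads with TrimGalore! 0.4.1, aligned them to *Sorghum bicolor* NCBIv3 with STAR 2.7.3a, kept unique alignments and counted genes with QoRTs at a mapping quality of at least 25. The strand setting is not given in the sources used here, so reads of a gene and of any antisense or overlapping transcript cannot be told apart.

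Genes whose counts summed to 10 or more were tested with edgeR 4.0.16 in R 4.3.3 (TMM, quasi-likelihood test, no replicate block, Benjamini-Hochberg adjustment over all genes). Standard errors and intervals were derived from the F statistic and are approximate. A call needed an adjusted p no higher than 0.1 and a log2 fold change of 0.5 or more in size. CPM are TMM-scaled. A gene was called expressed in a plant at 10 counts or more. Alternatives were the exact test, limma-voom (limma 3.58.1), DESeq2 1.42.0, RLE size factors, no filter, filterByExpr, 2 replicate blocks, leaving out each library, plain library sizes and thresholds of 1 count or 1 CPM. The procedure was also run on simulated data, with changes planted only in genes with a mean of at least 1 CPM. That run therefore does not cover genes as low as *GHD7* and *EHD1*, and no result given here rests on it.

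The 7 genes and all lists were chosen with earlier results of these data known. Named genes are the 7, 7 homologs from the study's table, the flanking locus numbers and, of the 3 genes closest in pattern to each, the first. Photoperiod and clock genes were also sought by name in the RefSeq gene table (NCBIv3), which matched 0 of the files' identifiers, so none was added.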

Additional observations from a re-analysis of the deposited data

How the results depend on the processing

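No alternative called any of the 7 genes, and the adjusted p of a single gene was never below 0.706, the value of *EHD1* without epi-F3 high replicate 3. Of their log2 fold changes under 13 alternatives each, those of *PRR37*, *EHD1*, *CN8*, *CN12* and *CN15* kept their direction in all 13, some of them near 0. With the block by plant number, where epi-F3 low replicate 2 adds nothing to the contrast, *CN12* was at -0.12 and *EHD1* at -0.12. *PRR37* was at 0.0012 without epi-F3 high replicate 1, and *CN8* was at 0.0128 without either epi-F3 high replicate 3 or epi-F3 low replicate 1. That of *CO*, near 0, turned to 0.0281 with limma-voom, 0.25 with a replicate block by plant number and 0.0362 with a block by the labelled replicate number. It lay between -0.2382 and 0.24 when single libraries were left out, turning to 0.16 without epi-F3 high replicate 3 and to 0.24 without epi-F3 low replicate 2. That of *GHD7* turned to 0.16 without epi-F3 high replicate 1. The cause was not tested. The number of the 7 genes called expressed was 6 at 10 counts, 4 at 1 CPM and 7 at 1 count in every plant, and 6 without any single library. Over all genes, the 1 gene called became 68 with DESeq2, 51 with the exact test, 12 without a filter, and 0 with limma-voom and with filterByExpr. It was 70 and 7 with a replicate block by plant number and by labelled number, and 0 to 80 without single libraries. The 80 came when epi-F3 high replicate 1 was left out, 27 for replicate 3 of that line, and 0 for epi-F3 low replicate 2 or 3. Without an epi-F3 high plant that line has 1 library, so these fits take the spread from epi-F3 low alone and assume that the lone plant varies like it. Deviations from the line means correlated at 0.0209 and 0.387 for plants of the same plant number and at 0.0209 and -0.363 for the same labelled number. The deviations of the 2 epi-F3 high plants are exact opposites, so these values depend on each other. They cannot decide whether either number pairs the plants. The alternatives for the *FT* homolog were chosen after seeing the data, and its log2 fold change lay between -2.69 and -1.31 over them. Depth limits *EHD1* and *GHD7*, at 3 to 57 and 11 to 49 counts per plant.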
